A study of Mus musculus with 6 samples.

Results

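Cyclins D1, D2, D3, E1, E2, A2, B1 and B2 and the kinases CDK1 and CDK2 were followed through the poly-A RNA of cardiomyocyte (CM) nuclei that carried GFP or 1 of 2 activated forms of YAP. The genes were chosen by name, as the rows of the count table whose Ensembl ID bears the symbol *Ccnd1*, *Ccnd2*, *Ccnd3*, *Ccne1*, *Ccne2*, *Ccna2*, *Ccnb1*, *Ccnb2*, *Cdk1* or *Cdk2* in GENCODE M21. They are 10 of 54532 gene rows. None was picked by a rule on its level, but earlier results of these data were known when the genes were chosen. The question was which stage of the cell cycle responds, at the RNA level, to each YAP form.

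The mice were wild-type ICR animals. At postnatal day 6 they received 1e+11 viral genomes of AAV9 under the skin, and hearts were taken at day 9, 3 d later. The GFP group received cTnT-GFP, the YAP5SA group cTnT-YAP5SA and the YAP6SA group cTnT-YAP6SA. The groups thus share strain, virus, dose and ages and differ in the transgene. The study used mice of both sexes, and sex and litter were not compared between the groups. The cardiac troponin T (cTnT) promoter drives the transgene in CMs, whose own *Yap1* gene was left intact. YAP5SA has alanine in place of 5 serines that the LATS kinases phosphorylate. YAP6SA carries those changes and 1 more, which disrupts binding to the TEAD transcription factors. Nuclei were pulled down through PCM1, a protein on the CM nuclear envelope, and each group gave 2 libraries, 1 in each of 2 batches. Gene counts ranged from 14552847 to 19615627 per library. The labels mention 2 hearts per virus but tie no library to a heart, so the p-values below measure the spread between these libraries, which may be technical.

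Cyclins are the regulatory subunits that switch on cyclin-dependent kinases (CDKs), and each type is made and destroyed at its own point in the cycle. D-type cyclins act with CDK4 and CDK6 in G1, E-type cyclins with CDK2 at the start of DNA synthesis, cyclin A2 with CDK2 and CDK1 from S phase into G2, and B-type cyclins with CDK1 at mitosis. In the mouse heart, CMs leave the cell cycle during the first weeks after birth, and transcripts of the mitotic cyclins and of *Cdk1* become scarce.

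The sequences just upstream of a start site are shown because late cell cycle genes share short promoter elements, namely the CCAAT box and the cell cycle genes homology region (CHR, TTTGAA). RefSeq's promoter table (GRCm38.p6) had 300-base windows, 250 before and 50 after the start, for 6 of the 10 genes. *Ccnd1*, *Ccnd2*, *Ccne2* and *Ccna2* had no entry. Capitals mark every match, on either strand, to 5 motifs: CCAAT, the CHR, the E2F sites TTTGGCGC and TTTCCCGC, and the TEAD site GGAATG. The bases shown lie upstream of both the RefSeq start and the GENCODE gene. All 5 genes are on the minus strand, and positions are counted from the RefSeq start.
Ccnb2, chr9:70421555-70421734: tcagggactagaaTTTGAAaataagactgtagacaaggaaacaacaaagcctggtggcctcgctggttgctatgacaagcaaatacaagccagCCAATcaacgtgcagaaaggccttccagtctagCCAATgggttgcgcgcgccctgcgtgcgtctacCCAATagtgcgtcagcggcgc
Cdk1, chr10:69352939-69353118: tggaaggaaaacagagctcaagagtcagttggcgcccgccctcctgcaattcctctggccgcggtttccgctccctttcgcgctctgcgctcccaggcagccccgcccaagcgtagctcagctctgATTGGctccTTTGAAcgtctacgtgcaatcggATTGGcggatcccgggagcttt
Ccnb1, chr13:100786571-100786736: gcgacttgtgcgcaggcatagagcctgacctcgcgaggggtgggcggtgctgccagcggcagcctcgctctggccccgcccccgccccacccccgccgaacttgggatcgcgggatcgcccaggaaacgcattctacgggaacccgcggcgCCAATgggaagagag
Cdk2, chr10:128705052-128705231: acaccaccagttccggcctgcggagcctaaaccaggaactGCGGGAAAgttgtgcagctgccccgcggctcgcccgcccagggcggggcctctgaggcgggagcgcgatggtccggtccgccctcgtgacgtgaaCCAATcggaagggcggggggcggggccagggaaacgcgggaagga
Ccne1, chr7:38107535-38107714: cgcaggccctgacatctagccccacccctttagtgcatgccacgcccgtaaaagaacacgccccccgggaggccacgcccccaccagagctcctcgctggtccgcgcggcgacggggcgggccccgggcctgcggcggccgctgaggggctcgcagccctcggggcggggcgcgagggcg

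In the 300-base windows, *Ccnb2* had 3 CCAAT boxes, at -87, -54 and -21, and CHR matches at -167 and 5. *Cdk1* also had 3 CCAAT boxes, all on the strand opposite to the gene (ATTGG as printed), at -208, -80 and -48, with CHR matches at -71 and -15. *Ccnb1* had CCAAT at -99 and -67 and no CHR match, and *Cdk2* had 1 CCAAT box at -45 and an E2F site at -140. Of the 2 starts listed for *Ccnd3*, 1 had CCAAT at -108 and a TEAD match at -17, and the other had no match. No motif was found for *Ccne1*. CCAAT is present in 37.4% of all 32851 promoter windows of this length, the CHR in 17.9%, the TEAD site in 14.7% and the E2F sites in 0.514% and 1.07%. No match overlapped another. A match is a run of letters and no evidence of binding.

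Levels are first given per transcript length, as TPM (counts per base of exon, scaled to the library), so that genes can be compared. *Cdk2* was the most abundant of the 10 in every group, with 65.5 ± 2.90 TPM for GFP, 65.4 ± 6.08 for YAP6SA and 87.6 ± 0.504 for YAP5SA (mean ± SD, n = 2 libraries). *Ccnd1* was the lowest in every group, at 1.97 ± 0.811, 2.92 ± 1.17 and 4.05 ± 0.799 TPM. In GFP nuclei, the order below *Cdk2* was *Ccne2* at 11.6 TPM, *Ccnd3* at 10.6, *Cdk1* at 10.4, *Ccnb2* at 10.3, *Ccnb1* at 9.90, *Ccna2* at 8.06, *Ccnd2* at 5.74 and *Ccne1* at 5.34. From *Ccnd3* to *Ccna2*, each gene overlapped the next over the 2 libraries, as did *Ccnd2* and *Ccne1*, so those neighbours are not separated. The orders here and in the next paragraph use the merged exon length and were not computed with the longest transcript. The 2 lengths are 8775 and 3858 bases for *Ccnd3*, 3495 and 3006 for *Ccne2*, and 4217 and 2489 for *Ccnb1*. For *Ccnb2* both are 1531. The order of *Ccne2* and *Ccnd3*, or of *Ccnb1* and *Ccnb2*, is therefore not settled by these values.

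In YAP6SA OE CMs the order was *Cdk2*, *Ccnb2*, *Ccnd3*, *Cdk1*, *Ccnb1*, *Ccna2*, *Ccne2*, *Ccne1*, *Ccnd2* and *Ccnd1*, with *Ccnb2* at 13.9 TPM and *Ccne2* at 7.43. *Ccnd3* overlapped with both its neighbours in this order, and so did *Ccne2*. In YAP5SA OE CMs the mitotic genes stood next to *Cdk2*, with *Cdk1* at 42.1 ± 10.8 TPM, *Ccnb2* at 41.9 ± 0.718 and *Ccnb1* at 33.2 ± 2.43. There *Ccne1* followed at 25.04 ± 11.6 TPM, *Ccna2* at 23.6 ± 2.41, *Ccnd3* at 17.1 ± 0.190, *Ccne2* at 15.2 ± 7.03 and *Ccnd2* at 9.02 ± 0.173. *Cdk1* overlapped with *Ccnb2*, *Ccnb1* with *Ccne1*, *Ccne1* with *Ccna2*, and *Ccnd3* with *Ccne2*.

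**Figure D1:**
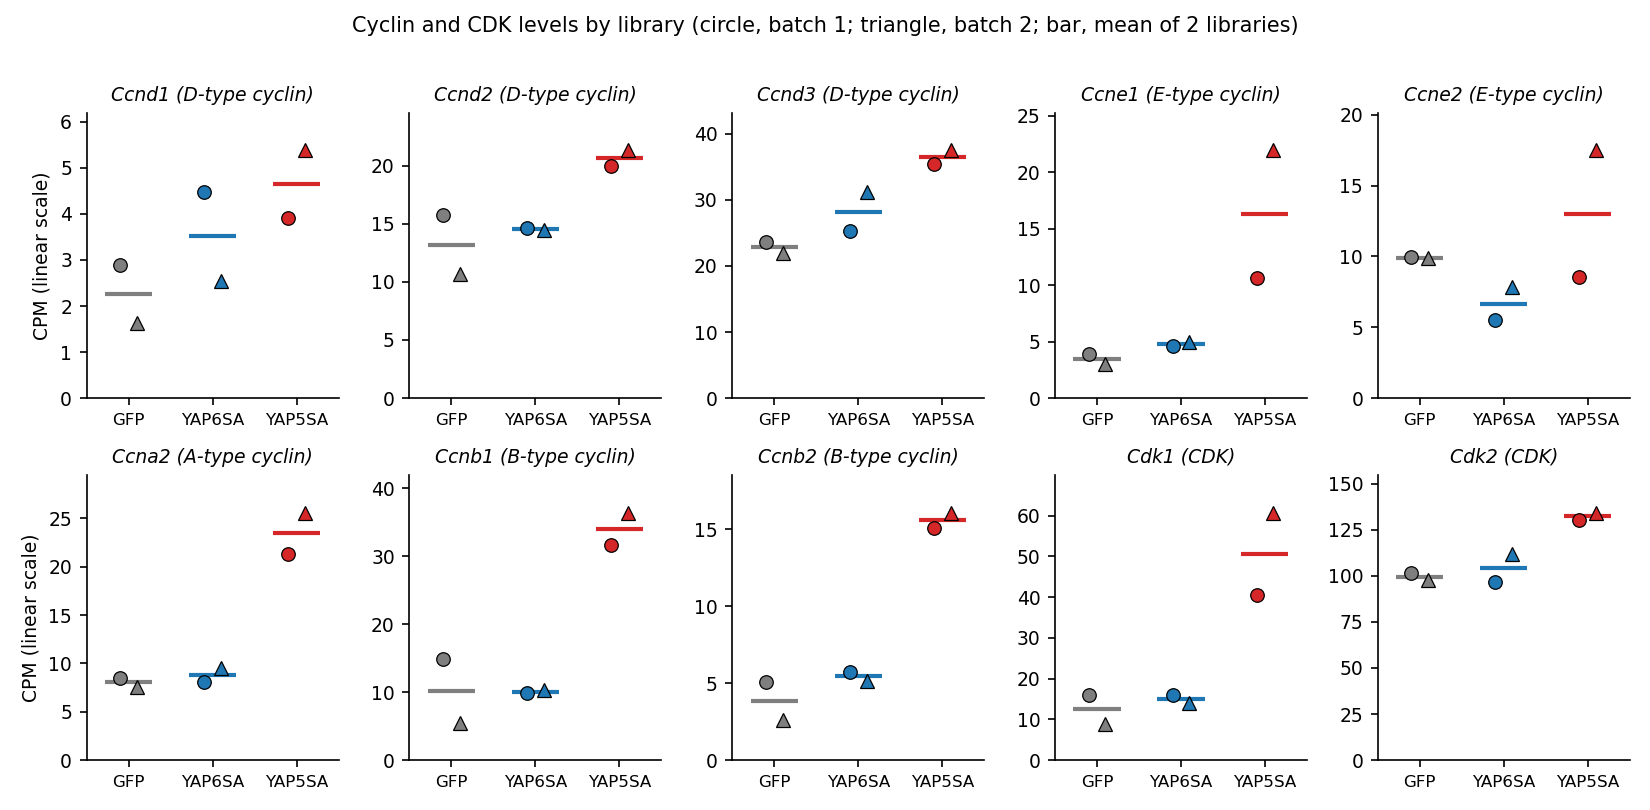
Level of each cyclin and CDK in CPM (linear axis from 0), with 1 panel per gene and 1 point per library (circle, batch 1; triangle, batch 2) and a bar at the mean of the 2 libraries. *Cdk1* rose from 16.1 and 8.82 CPM in GFP to 40.5 and 60.8 in YAP5SA, while *Cdk2* moved from 101 and 97.8 to 130.2 and 134.

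Changes between groups were tested with edgeR (quasi-likelihood) on the counts of all 13323 genes kept. FDR is the Benjamini-Hochberg adjusted p over these genes, and CPM are counts scaled to library size. All 10 genes passed the filter on low counts, and did so in each of the 3 groups. In YAP6SA OE CMs, 0 of the 10 were called at an FDR under 0.05 and 0 had an unadjusted p under 0.05, by this test, against 3.86% of all genes higher and 2.07% lower at that p. DESeq2, limma-voom and the likelihood ratio test also called 0. Of all genes tested, 0.045% were called higher and 0% lower. In YAP5SA OE CMs, 6 of the 10 were higher than in GFP and 0 were lower, where 12.8% of all genes were called higher and 9.18% lower. These were *Ccnd3*, *Ccne1*, *Ccna2*, *Ccnb1*, *Ccnb2* and *Cdk1*. In YAP5SA against YAP6SA, 5 were higher and 0 lower, with 9% of all genes called higher and 5.68% lower. These 5 were the same genes without *Ccnd3*. The median log2 fold change of the 10 genes was 0.21, 1.32 and 1.17 in these comparisons, and that of all genes 0.0018, -0.0031 and -0.013. The comparisons against GFP share the GFP libraries, and both with YAP5SA share the YAP5SA libraries.

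Of the D-type cyclins, which carry growth signals into G1, *Ccnd3* rose in YAP5SA OE CMs, and *Ccnd1* and *Ccnd2* did not pass the test. *Ccnd3*, the most abundant of the D-type cyclins, had 23.7 and 22.0 CPM in GFP (batch 1 first, here and below), 25.3 and 31.2 in YAP6SA, and 35.5 and 37.5 in YAP5SA. The 3 groups did not overlap and stood in the order GFP, YAP6SA, YAP5SA. The log2 fold change in YAP5SA against GFP was 0.67 (SE 0.19, FDR 0.0317 by edgeR), 0.59 in batch 1 and 0.77 in batch 2. *Ccnd3* fell just short of the threshold when the 4 libraries of GFP and YAP5SA were fitted alone (FDR 0.0505), and missed it without GFP replicate 1 (FDR 0.0753) or GFP replicate 2 (FDR 0.336). Its values were 0.30 in YAP6SA against GFP (FDR 0.891) and 0.37 in YAP5SA against YAP6SA (FDR 0.212).

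*Ccnd2* had 15.7 and 10.6 CPM in GFP, 14.6 and 14.4 in YAP6SA, and 19.9 and 21.3 in YAP5SA. Both YAP5SA libraries were above the other 4, with a log2 fold change of 0.66 against GFP that was not past the threshold (SE 0.24, FDR 0.0791 by edgeR). It was 0.15 in YAP6SA against GFP (FDR 0.949) and 0.51 in YAP5SA against YAP6SA (FDR 0.183). *Ccnd1* had the fewest counts of the 10 genes, 25 to 96 per library. It had 2.89 and 1.63 CPM in GFP, 4.48 and 2.55 in YAP6SA, and 3.91 and 5.38 in YAP5SA. Its YAP6SA range overlapped both other groups. The log2 fold change of *Ccnd1* was 0.63 in YAP6SA (SE 0.47, FDR 0.908) and 1.10 in YAP5SA (SE 0.47, FDR 0.122 by edgeR), and the interval of the latter, 0.044 to 2.15, is the widest of the 10 in that comparison. Between the variants *Ccnd1* differed by 0.47 (FDR 0.529), with an interval of -0.55 to 1.495.

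Cyclin E1 and cyclin E2, the partners of CDK2 at the entry into S phase, had different patterns over the libraries. *Ccne1* had 3.94 and 3.004 CPM in GFP, 4.58 and 4.97 in YAP6SA, and 10.7 and 21.9 in YAP5SA. All YAP5SA values were above all others, and the YAP5SA libraries themselves differed 2.05-fold. The change of *Ccne1* in YAP5SA against GFP, 4.46-fold or 2.16 on the log2 scale, had the largest estimate of the 10 genes (SE 0.38, FDR 0.00468 by edgeR). It was 1.43 in batch 1 and 2.85 in batch 2. Without GFP replicate 2 the value of *Ccne1* was 1.67 and the call was lost (FDR 0.0595). Its YAP6SA value against GFP was 0.43, with an interval of -0.42 to 1.28 (FDR 0.920). Between the variants it was 1.73 (3.31-fold, SE 0.37, FDR 0.0139), and this call was lost without YAP6SA replicate 2 (FDR 0.165) or YAP5SA replicate 2 (1.11, FDR 0.133).

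*Ccne2* had 9.99 and 9.86 CPM in GFP, 5.49 and 7.82 in YAP6SA, and 8.55 and 17.5 in YAP5SA. The YAP6SA libraries were both below the other 4, whereas 1 YAP5SA library lay below GFP and 1 above. The log2 fold change of *Ccne2* was -0.62 in YAP6SA against GFP (SE 0.31, 95% confidence interval -1.32 to 0.078, FDR 0.842 by edgeR), the only negative estimate of the 10 genes in any of the 3 comparisons. It was 0.31 in YAP5SA against GFP (FDR 0.505), and 0.93 in YAP5SA against YAP6SA (SE 0.31, FDR 0.0742). The last of these passed under 2 of 9 other fits, with no filter (FDR 0.0181) and by the likelihood ratio test (FDR 0.0290).

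As a share of the summed TPM of both E-type cyclins, *Ccne1* held 34.1% and 28.6% in the GFP libraries, 52.2% and 45.5% in YAP6SA, and 62.1% and 62.2% in YAP5SA. The 3 groups do not overlap. With the longest transcript as the gene length, group means were 34.3%, 52.2% and 65.3%. No test is given, because with 2 libraries per group an exact permutation test cannot go below a p of 0.333. *Ccnd3* held 53.6% to 63.1% of the D-type cyclins in all 6 libraries, and *Ccnb1* held 51.4% and 43.0% of the B-type cyclins in GFP, 38.3% and 42.2% in YAP6SA, and 43.2% and 45.1% in YAP5SA. Both YAP6SA values were below the other 4, and GFP and YAP5SA overlapped. Which B-type cyclin is the larger depends on the gene length used. With the longest transcript *Ccnb1* held 64.2% and 56.1% in GFP, 51.2% and 55.3% in YAP6SA, and 56.3% and 58.2% in YAP5SA, more than *Ccnb2* in every library. The share of *Cdk1* in the sum of *Cdk1* and *Cdk2*, a pair added after the values were seen, was 16.7% and 10.2% in GFP, 17.2% and 13.6% in YAP6SA, and 28.1% and 36.3% in YAP5SA.

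**Figure D2:**
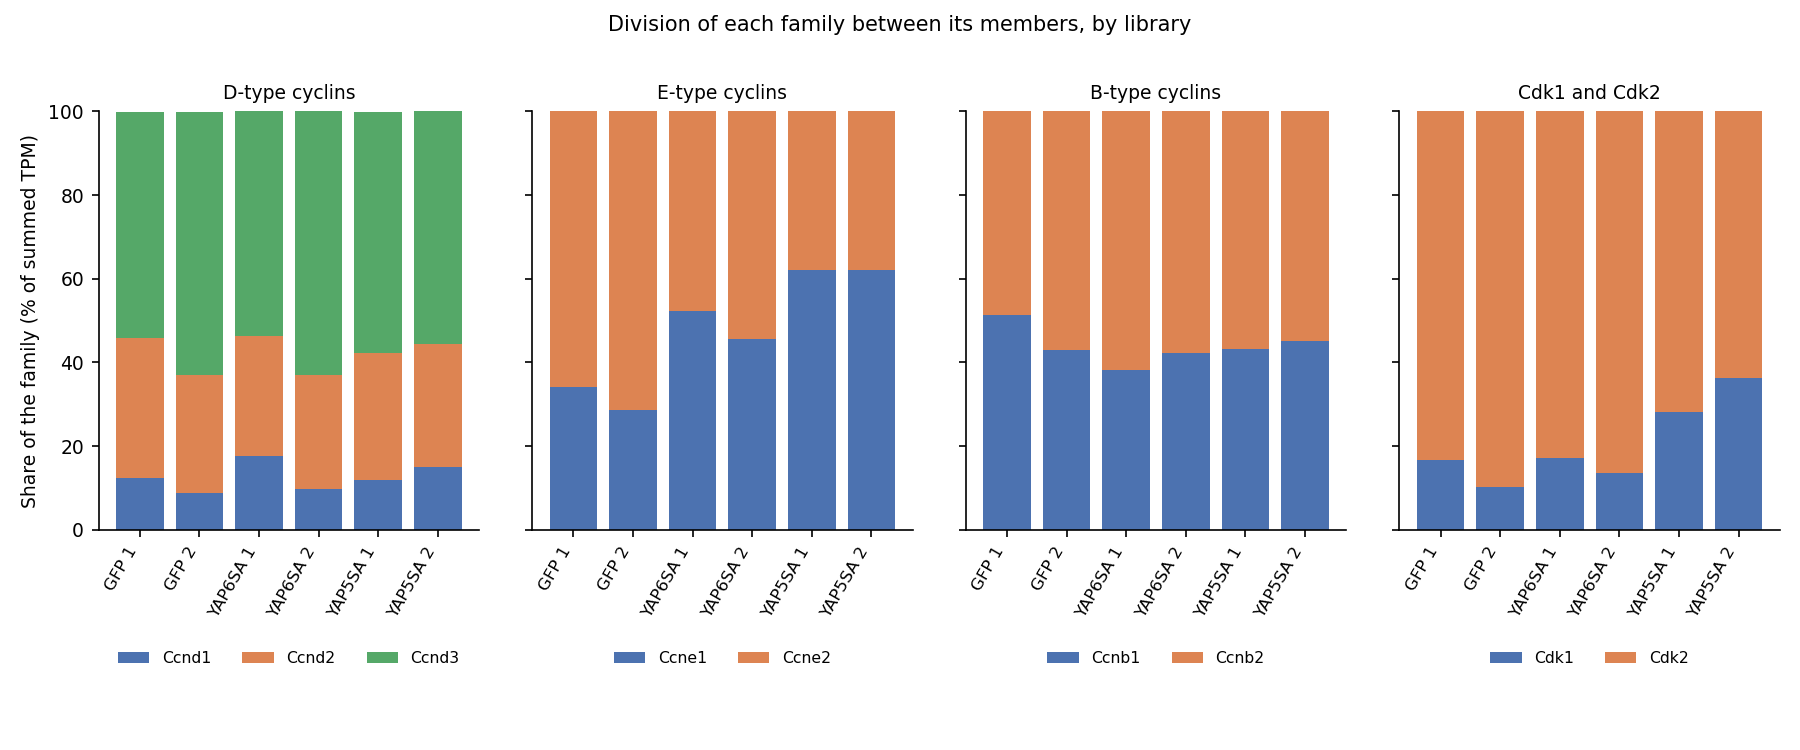
Division of each family between its members, as stacked bars of the share of the summed TPM (in %), 1 bar per library. The *Ccne1* share of the E-type cyclins goes from 34.1% and 28.6% in GFP to 62.1% and 62.2% in YAP5SA, while the *Ccnd3* share of the D-type cyclins overlaps between the 3 groups.

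*Ccna2*, whose product acts from S phase into G2, rose in YAP5SA and did not pass the test in YAP6SA. It had 8.52 and 7.57 CPM in GFP, 8.04 and 9.58 in YAP6SA, and 21.3 and 25.6 in YAP5SA. The log2 fold change of *Ccna2* was 0.12 in YAP6SA, with a 95% confidence interval of -0.43 to 0.67 and thus an upper bound well under the YAP5SA estimate. It was 1.53 in YAP5SA against GFP (2.90-fold, SE 0.25, FDR 0.00278 by edgeR) and 1.41 in YAP5SA against YAP6SA (SE 0.24, FDR 0.00533). The batches gave 1.32 and 1.75 against GFP, the closest pair among the members called apart from *Ccnd3*. *Ccna2* was called against GFP in all 9 other fits and without each of the 4 libraries in turn, and against YAP6SA it was lost without YAP6SA replicate 2 (FDR 0.0564).

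The B-type cyclins drive entry into mitosis with CDK1, and both were higher in YAP5SA. *Ccnb1* had 14.9 and 5.42 CPM in GFP, 9.82 and 10.4 in YAP6SA, and 31.6 and 36.4 in YAP5SA. Its level in GFP replicate 2 was 0.364 times that in GFP replicate 1, and the YAP6SA values fell between them. Its log2 fold change was 1.82 in YAP5SA against GFP (3.53-fold, SE 0.37, FDR 0.00789 by edgeR), with 1.09 in batch 1 and 2.74 in batch 2. Without GFP replicate 2 it was 1.12 (FDR 0.0631). In YAP6SA against GFP it was 0.053, with an interval of -0.77 to 0.87 (FDR 0.993). Between the variants it was 1.77 (3.40-fold, SE 0.36, FDR 0.0114), with 1.68 and 1.81 in the batches, and the call was lost without YAP6SA replicate 1 (FDR 0.0568).

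*Ccnb2* had 5.10 and 2.61 CPM in GFP, 5.75 and 5.15 in YAP6SA, and 15.1 and 16.1 in YAP5SA. The YAP6SA values were just above the higher GFP value, and the YAP5SA values were far above both. *Ccnb2* was 4.14-fold higher in YAP5SA than in GFP (log2 fold change 2.05, SE 0.34, FDR 0.00343 by edgeR) and 2.89-fold higher than in YAP6SA (1.53, SE 0.33, FDR 0.0143). Its YAP6SA value against GFP was 0.52, with an interval of -0.25 to 1.29 (FDR 0.899). The YAP5SA call against GFP held without each library in turn, and the call against YAP6SA was lost without YAP6SA replicate 1, YAP6SA replicate 2 or YAP5SA replicate 2 (FDR up to 0.109).

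Of the kinases, *Cdk1* rose in YAP5SA and *Cdk2* did not pass the test. *Cdk1*, the mitotic kinase, had 16.1 and 8.82 CPM in GFP, 15.9 and 13.9 in YAP6SA, and 40.5 and 60.8 in YAP5SA. Both YAP5SA libraries were above the other 4, and the YAP6SA libraries lay within the GFP range. *Cdk1* was 4.13-fold higher in YAP5SA than in GFP (log2 fold change 2.05, SE 0.31, FDR 0.00215 by edgeR) and 3.43-fold higher than in YAP6SA (1.78, SE 0.30, FDR 0.00491). Both calls held in all 9 other fits and without each library in turn. In YAP6SA against GFP its log2 fold change was 0.27, with an interval of -0.41 to 0.94.

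*Cdk2*, the S phase kinase, had 101 and 97.8 CPM in GFP, 96.6 and 112 in YAP6SA, and 130.2 and 134 in YAP5SA. The YAP5SA libraries stood above the other 4 by a small margin, 1.33-fold over GFP (log2 fold change 0.41, SE 0.15, FDR 0.0712 by edgeR), and the call was not made in any of the 9 other fits or with a library left out. The interval of *Cdk2* in YAP6SA, -0.26 to 0.39, is the narrowest of the 10 in that comparison, and 1498 to 2396 counts per library lie behind it. *Cdk2* differed by 0.35 between the variants (FDR 0.139). The *Cdk2* and *Cdk1* intervals in YAP5SA against GFP, 0.083 to 0.73 and 1.36 to 2.74, do not overlap. The difference between genes was not tested.

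**Figure D3:**
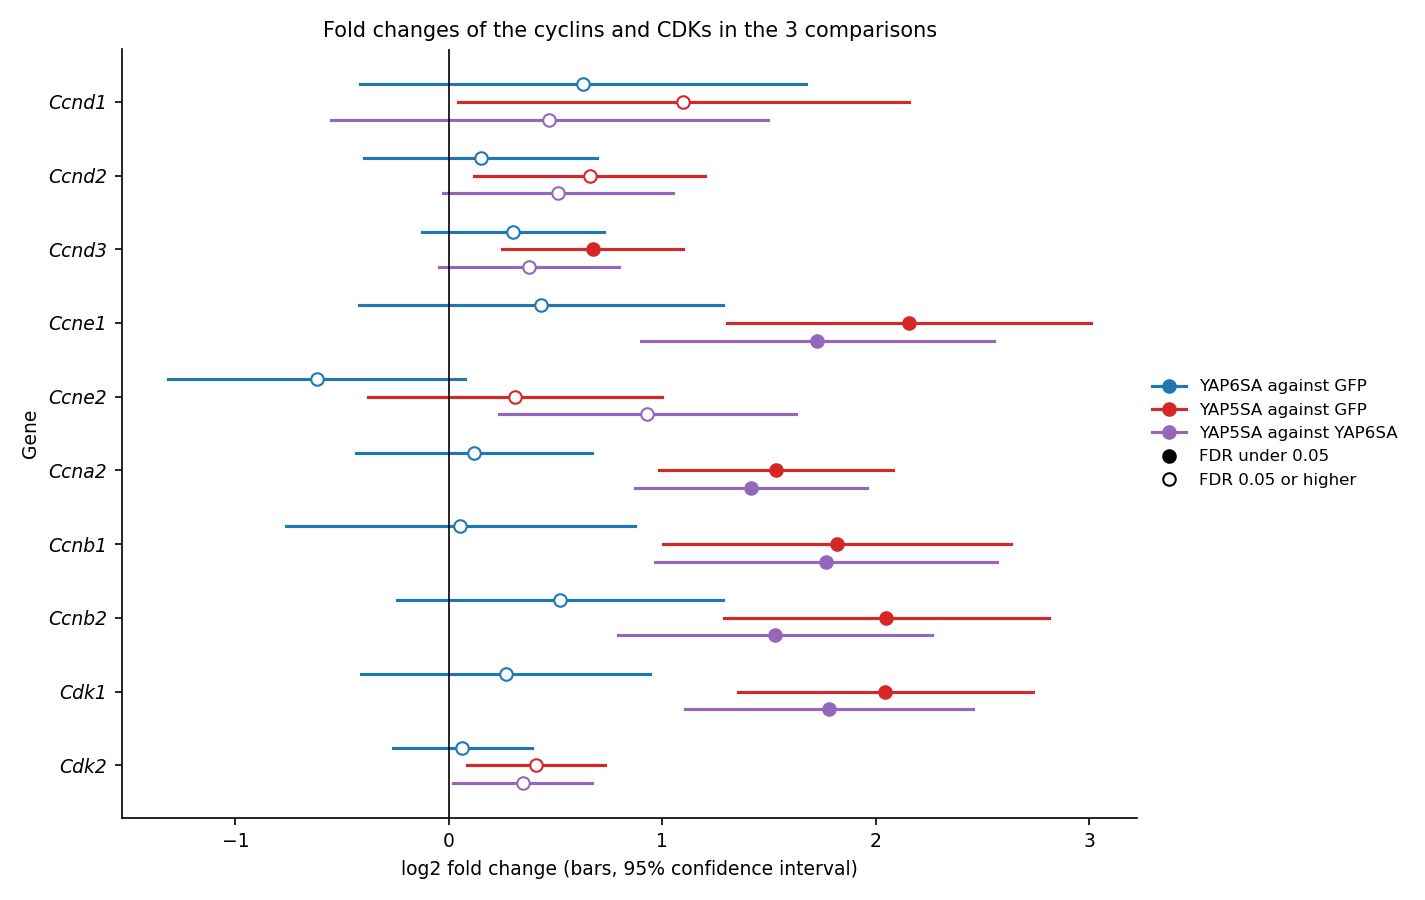
Log2 fold change of each gene in the 3 comparisons, with 95% confidence intervals as bars and filled points at an FDR under 0.05. Cyclin A2, both B-type cyclins, cyclin E1 and *Cdk1* lie between 1.53 and 2.16 in YAP5SA against GFP, and the YAP6SA intervals of all 10 genes include 0.

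By stage, the log2 fold changes in YAP5SA against GFP spanned 0.66 to 1.10 for the D-type cyclins, 0.31 to 2.16 for the E-type, 1.53 for cyclin A2, and 1.82 to 2.05 for the B-type. In YAP6SA against GFP the same ranges were 0.15 to 0.63, -0.62 to 0.43, 0.12, and 0.053 to 0.52. The summed TPM of the 8 cyclins, a measure added after the values were seen, was 75.7 and 51.5 in GFP, 65.9 and 69.4 in YAP6SA, and 151 and 187 in YAP5SA. B-type cyclins made up 37.6% and 23.4% of that sum in GFP, 36.4% and 32.5% in YAP6SA, and 48.2% and 41.3% in YAP5SA. The D-type share was 27.3% and 31.2%, 32.2% and 31.4%, and 19.4% and 16.6%. YAP5SA libraries had the highest B-type and the lowest D-type shares of the 6. These sums and shares use the merged exon length and were not computed with the longest transcript.

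Groups that do not overlap were counted as well. In YAP5SA against GFP, 9 of the 10 genes were higher in both libraries than in either GFP library, all but *Ccne2*, compared with 31.2% of all genes, and 0 were lower (29.7% of all genes). In YAP5SA against YAP6SA the count was also 9, all but *Ccnd1*, compared with 28.6%, and 0 were lower (28.9%). In YAP6SA against GFP, *Ccnd3*, *Ccne1* and *Ccnb2* were higher without overlap, and *Ccne2* was lower, while 17.3% and 17% of all genes were so placed. The estimate was above 0 in 9 of the 10 genes in YAP6SA, against 50.3% of all genes (10 of the 10 against 49.7% in YAP5SA), and the YAP6SA count rests on batch 2. In batch 1, 4 genes were higher and 6 lower in YAP6SA than in GFP, and in batch 2, 9 were higher and 1 lower.

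Within GFP and within YAP5SA, the 10 genes moved in 1 direction between replicates, and within YAP6SA they did not. All 10 genes were lower in GFP replicate 2 than in GFP replicate 1, as were 51.1% of all genes, and all 10 were higher in YAP5SA replicate 2 than in YAP5SA replicate 1, as were 51.5% of all genes. In YAP6SA, 6 were higher and 4 lower, compared with 49.9% and 50% of all genes. The ratio of replicate 2 to replicate 1 in GFP was lowest for *Ccnb1* (0.364), *Ccnb2* (0.512), *Cdk1* (0.548) and *Ccnd1* (0.565), and nearest to 1 for *Ccne2* (0.987) and *Cdk2* (0.966). In YAP5SA, *Ccne1* (2.05) and *Ccne2* (2.05) had the highest ratios. Without GFP replicate 2, the YAP6SA against GFP estimates of *Ccnd2*, *Ccne1*, *Ccna2*, *Ccnb1*, *Cdk1* and *Cdk2* turned from above to below 0. That of *Ccne2* stayed below 0. With a library left out, its group has 1 library, which is assumed to vary like the others.

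Other genes of the pathway are given from lists that hold none of the 10. Of 54 G2/M phase genes, 46 rose and 0 fell in YAP5SA against GFP, with a median log2 fold change of 1.68. Of all genes tested, 12.8% were called higher and 9.18% lower in this comparison. *Ect2*, which activates RhoA at cytokinesis, rose by 2.85, *Dlgap5*, a spindle protein, by 2.48, and *Cdca3*, which promotes mitotic entry, by 2.28. Of 49 S phase genes tested, 34 rose and 1 fell, with a median of 1.55. *Dtl*, a substrate adaptor of a ubiquitin ligase that acts in S phase, rose by 3.04, *Rrm2*, a subunit of ribonucleotide reductase, by 2.72, and *Dscc1*, a clamp loader subunit, by 2.70. The gene that fell was *Ung*, a uracil-DNA glycosylase (log2 fold change -1.16, FDR 0.00230 by edgeR), named here after its value was seen. In YAP6SA against GFP, 0 genes of any of the 9 lists were called, with medians of 0.037 for the G2/M and 0.15 for the S phase genes. Of all genes, only 0.045% were called higher and 0% lower there, so a list without calls says little. The lists were not counted in the 4-library fit, which called 198 of all genes higher and 78 lower.

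Cyclins and CDKs outside the 10 mostly did not pass the test. Of 15 other cyclins tested, 1 rose and 1 fell in YAP5SA against GFP, where 12.8% of all genes were called higher and 9.18% lower. *Ccnf*, the F-box cyclin that peaks in G2, rose by 1.58 on the log2 scale (SE 0.38, FDR 0.0157 by edgeR), and *Ccng1*, a p53-induced cyclin, fell by 0.72 (SE 0.18, FDR 0.0200). Of 21 other CDKs and CDK-like kinases, 4 rose (*Cdk15*, *Cdkl1*, *Cdk16* and *Cdk7*) and 1 fell (*Cdkl3*, log2 fold change -0.91, FDR 0.0407). The median log2 fold changes of the cyclin and CDK lists were -0.077 and 0.021, near that of all genes (-0.0031). For *Cdk15* the counts were 4 and 0 in GFP, 0 and 0 in YAP6SA, and 133 and 451 in YAP5SA. *Cdkl1* rose by 2.47 (SE 0.28, FDR 0.000564). *Cdk16* and *Cdk7* were named after their values were seen.

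The kinases of the D-type cyclins did not pass in any comparison. *Cdk4* had 117 and 119 CPM in GFP, 123 and 141 in YAP6SA, and 129 and 155 in YAP5SA, with log2 fold changes of 0.15 (FDR 0.929) and 0.26 (FDR 0.227 by edgeR) against GFP. *Cdk6* had 73.7 and 90.2 CPM in GFP, 89.7 and 115 in YAP6SA, and 66.4 and 82.9 in YAP5SA, and its value in YAP5SA against YAP6SA was -0.46 (FDR 0.0560). *Yap1* itself, counted with or without the transgene's reads, which was not tested, had a log2 fold change of -0.09 in YAP6SA and -0.17 in YAP5SA.

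CDK inhibitors were tested for 5 of 7 genes, and 2 rose and 0 fell with YAP5SA, compared with 12.8% and 9.18% of all genes. *Cdkn1a*, which encodes p21, had 17.0 and 23.2 CPM in GFP, 25.5 and 26.4 in YAP6SA, and 39.9 and 43.7 in YAP5SA. The groups did not overlap, and the log2 fold change of *Cdkn1a* was 1.07 in YAP5SA against GFP (SE 0.19, FDR 0.00511 by edgeR). *Cdkn2c*, an inhibitor of CDK4 and CDK6, had 6.52 and 3.79 CPM in GFP, 6.51 and 5.82 in YAP6SA, and 14.8 and 16.4 in YAP5SA, a log2 fold change of 1.62 (SE 0.32, FDR 0.00687). *Cdkn2d* (0.86, FDR 0.0990), *Cdkn1c* (0.44, FDR 0.338) and *Cdkn1b*, which encodes p27 (-0.17, FDR 0.557), did not pass. *Cdkn2a* had at most 3 counts in a library and *Cdkn2b* at most 9, and neither was tested.

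Enzymes that switch CDK1 on and off were also measured. Of 14 such genes and CDK partners, 8 rose and 0 fell in YAP5SA against GFP, compared with 12.8% and 9.18% of all genes. *Pkmyt1*, a kinase that holds CDK1 inactive, rose by 2.72, *Cdc25c*, a phosphatase that activates it, by 2.39, and *Mastl*, which restrains the opposing phosphatase, by 2.09. Of 22 genes of cyclin degradation, 5 rose and 1 fell, with a median log2 fold change of 0.029, near that of all genes (-0.0031). *Cdc20*, an activator of the anaphase-promoting complex that marks B-type cyclins for destruction, rose by 2.01, *Ube2c*, its ubiquitin-conjugating enzyme, by 1.72, and *Skp2*, an F-box protein, by 2.11. The other 2 that rose were *Ube2s* and *Fbxo5*, and *Fbxo31* fell (log2 fold change -0.81, FDR 0.00567 by edgeR). These 3 were named after their values were seen.

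Of 20 genes of the RB, E2F, DREAM and FOXM1 list, 7 rose and 0 fell in YAP5SA against GFP. The shares of all genes were 12.8% higher and 9.18% lower. *E2f1*, an activator of E-type cyclin genes, had 3.89 and 3.20 CPM in GFP, 4.83 and 3.94 in YAP6SA, and 20.9 and 29.0 in YAP5SA, a log2 fold change of 2.81 (SE 0.31, FDR 0.000524 by edgeR). *E2f7* rose by 2.21 and *E2f2* by 2.02. Of 21 YAP and TEAD targets tested, 15 rose and 0 fell, led by *Ccn2* at 3.33, *Amotl2* at 2.83 and *Nuak2* at 2.44, and their median was 1.25 in YAP5SA and 0.087 in YAP6SA.

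**Figure D4:**
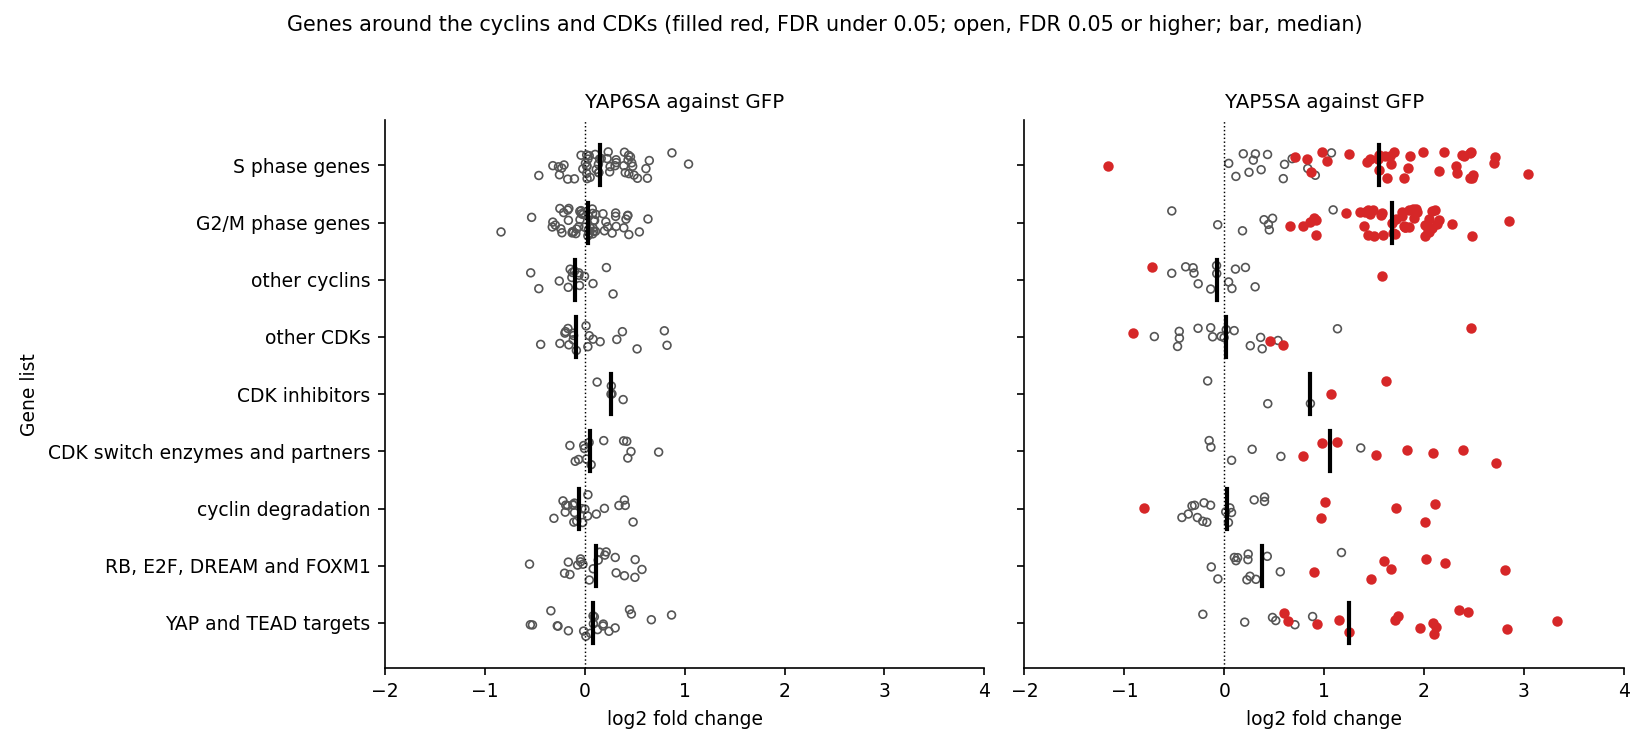
Log2 fold changes against GFP of the genes in 9 lists that hold none of the 10 genes, with 1 point per gene tested (filled at an FDR under 0.05), a black bar at the list's median, and *Cdk15* not drawn because 3 of the 4 GFP and YAP6SA libraries hold 0 counts of it. Filled points are absent from the YAP6SA panel, and in the YAP5SA panel they make up 46 of 54 G2/M phase genes and 34 higher and 1 lower of 49 S phase genes. The shares of all genes called higher and lower are 0.045% and 0% in YAP6SA, and 12.8% and 9.18% in YAP5SA.

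For each of the 10 genes, the genes with the most similar pattern over the 6 libraries were found by the root mean square difference of log2 CPM, after each gene's own mean was removed. This is a description over 6 libraries that all genes share. The closest were *Cenpe* and *Cep55* for *Cdk1* (0.066 and 0.085), *Cdc20*, *Prc1* and *Kif15* for *Ccnb2* (0.097 to 0.14), and *Elf4*, *Kif20a* and *Prim1* for *Ccna2* (0.071 to 0.087). For *Ccne1* they were *Mad2l1*, *Timp1* and *Kazn* (0.077 to 0.13). For *Cdk2* they were *Rfc2*, *Reps1* and *Ak6* (0.033 to 0.041), and for *Ccnd3* *Gatm*, *Amigo3* and *Herc6* (0.040 to 0.063). For *Ccnd2* they were *Slc35d2*, *Myl7* and *Gmnn* (0.048 to 0.059), and for *Ccnd1* *Cdr2*, *Rpl24* and *Gas1* (0.087 to 0.11). *Ccne2*, with *Gm21887*, *Cdc42ep3* and *Erbb2* (0.12 to 0.16), and *Ccnb1*, with *Tg*, *Rnf32* and *Ticrr* (0.16 to 0.20), had the least similar neighbours.

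Markers of cell types were summed in CPM to show what else differed between the libraries. The 12 CM markers were present in all libraries and summed to 61464 and 81606 in GFP, 58193 and 75664 in YAP6SA, and 50653 and 37065 in YAP5SA, where *Ryr2* and *Pln* were lower and *Nppa* was higher at an FDR under 0.05. The 5 epicardial markers summed to 41.0 and 31.8, 57.7 and 31.8, and 126 and 189, with *Wt1* and *Krt19* called higher in YAP5SA. The 10 macrophage markers summed to 68.1 and 93.0, 81.9 and 111, and 94.6 and 149, with *Lyz2* and *C1qa* called higher. The 10 fibroblast markers (982 to 2030 in all libraries, *Ddr2* called higher in YAP5SA) and the 10 endothelial markers (623 to 999.8, *Fabp4* called higher) had overlapping groups. The 7 mural markers summed to less in YAP5SA (353 to 450.1) than in the other groups (512 to 595), with *Abcc9* lower and *Myh11* higher. Of the lymphocyte (1 of 7 tested), erythroid (2 of 7 tested), and Schwann and neuronal (1 of 6 tested) markers, 0 were called. No marker was at 0 in every library. The part of any of these in the cyclin and CDK results was not tested, and in bulk nuclei more cells of a type and more RNA per cell cannot be told apart.

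Reads were counted without strand, so overlapping genes on the opposite strand can draw reads away. Exons of *Ccnd1* overlap those of *LTO1*, *Ccnd2* those of *9330179D12Rik* and *Gm43126*, *Ccnd3* those of *Bysl*, *Ccne2* those of *Ints8*, *Ccna2* those of *Exosc9* and *Cdk2* those of *Pmel*, and reads in a shared stretch were left out. *Ccnb1*, *Ccnb2*, *Ccne1* and *Cdk1* have no such neighbour. Of the annotated pseudogenes, *Ccnb2-ps* had 52 and 49 counts in GFP, 39 and 39 in YAP6SA, and 38 and 14 in YAP5SA. *Ccnb2* itself had 97 and 40, 113 and 85, and 228 and 287, so in GFP replicate 2 the pseudogene had more. Whether reads of *Ccnb2* were counted on it was not tested. *Ccnd3-ps* had at most 9 counts per library and *Ccnb1-ps* had 0.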

How the data were processed

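Poly-A nuclear RNA of PCM1-bound CM nuclei was sequenced from 6 non-directional libraries, 2 per group. Reads were aligned by the authors (STAR, mm10, Ensembl 94), who deposited raw counts per gene with no normalization or filter. The other 4 rows hold reads that were unmapped (3.03% to 3.63%), multimapping (2.90% to 4.19%), outside genes (9.43% to 9.84%) or ambiguous (5.79% to 6.31%), and were left out. A gene at 0 counts could have up to 3 (0.153 to 0.206 CPM), which covers counting error only.

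Genes with a median log2 CPM over 1 in at least 1 group were kept (13323). edgeR 4.0.16 in R 4.3.3 (TMM scaling, quasi-likelihood test) was run on the deposited counts, in 1 model of all 6 libraries with terms for group and batch, which the study's methods also include. Genes were called at a Benjamini-Hochberg FDR under 0.05. CPM is TMM-scaled. TPM is the raw count divided by the merged exon length in GENCODE M21, scaled to the library's sum of these rates, with no TMM factor. The replicate number is the batch number in the labels. Deviations of same-batch libraries from their group means had correlations across genes of 0.368 (GFP and YAP6SA), 0.0985 (GFP and YAP5SA) and 0.175 (YAP6SA and YAP5SA). A shared batch shift was thus weak between GFP and YAP5SA, where the 10 genes moved in opposite directions from replicate 1 to replicate 2. Within each group, the 2 libraries were not copies of each other (chi-square per degree of freedom 25.3 to 39.6 between replicates). In simulated YAP5SA against GFP data of 12984 genes, 90 of 99 genes changed 4-fold and 51 of 99 changed 2-fold were called, with 8 false calls. Simulated counts were drawn around each gene's mean over the 6 libraries with no batch shift, so these rates need not hold for the real libraries.

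The genes, lists and tests were chosen with earlier results of these data known. All 10 genes were described, and of each list the 3 with the largest change among those called in YAP5SA against GFP, every gene called in YAP6SA, every CDK inhibitor, *Cdk4*, *Cdk6* and *Yap1*. Alternatives were RLE or upper quartile scaling, no filter (27396 genes), at least 10 counts in every library (13569), the likelihood ratio test, DESeq2 1.42.0, limma-voom (limma 3.58.1), no batch term, 4-library fits, FDR 0.01 or 0.1, and each library left out. For each of the 10, the 3 genes of most similar pattern were named, of which 1 is not reported here.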

Additional observations from a re-analysis of the deposited data

How the results depend on the processing

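No member was called in YAP6SA against GFP under any alternative run. There the call counts over all genes, 6 higher and 0 lower in the report, became 109 and 36 with no filter, 54 and 28 by the likelihood ratio test, 40 and 15 by DESeq2, 198 and 78 in the 4-library fit and 2 higher at FDR 0.01, and with a library left out ran from 6 to 11 higher and 0 to 3 lower. With no replicate block, 0 genes were called higher in YAP6SA, 759 lower in YAP5SA against GFP (1331 higher) and 301 lower in YAP5SA against YAP6SA (851 higher). The pairing by batch changed no call of a member, and *Ccnb1* in YAP6SA turned to -0.018 without the block.

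In YAP5SA against GFP the 10 genes gave 6 calls, and 3 to 8 with a library left out, while over all genes 560 to 2581 were higher and 178 to 2282 lower. FDR 0.01 gave 803 higher and 314 lower, and FDR 0.1 gave 1890 lower. In YAP5SA against YAP6SA the 5 calls became 2 at FDR 0.01 and 2 to 6 with a library left out, where 328 to 2206 genes were higher and 68 to 1954 lower. In that comparison 1161 genes were lower with no filter, 1155 by the likelihood ratio test, 537 higher and 123 lower at FDR 0.01, and 1342 lower at FDR 0.1. The lowest counts of members came without GFP replicate 2 and without YAP6SA replicate 2.

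With a library left out, log2 fold changes in YAP6SA against GFP ran from -0.13 to 0.47 (*Ccnd2*), -0.015 to 0.98 (*Ccne1*), -0.086 to 0.34 (*Ccna2*), -0.63 to 0.97 (*Ccnb1*), -0.21 to 0.87 (*Cdk1*) and -0.046 to 0.17 (*Cdk2*). *Ccne2* in YAP5SA against GFP ran from -0.090 to 0.72, and *Ccnd1* in YAP5SA against YAP6SA from -0.18 to 1.09. The causes were not tested.

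With the longest transcript as gene length, shares in GFP, YAP6SA and YAP5SA were 69.1%, 69.2% and 67.8% for *Ccnd3*, 23.97%, 21.8% and 23.3% for *Ccnd2*, and 60.1%, 53.3% and 57.2% for *Ccnb1*, with 39.9%, 46.7% and 42.8% for *Ccnb2*. The *Ccnd1* share was 6.91% in GFP and 8.85% in YAP5SA, and in YAP5SA *Ccne1* held 65.3% and *Ccne2* 34.7%. With 2 libraries per group, genes at the level of *Ccnd1* were measured with wide intervals.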
